A study of Mus musculus with 6 samples.

Results

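The genes described here are 42 genes of inositol phosphate metabolism together with the IP3 receptors, chosen by gene name. Of these, 38 had a row among the 20665 genes of the deposited table, and all 38 passed the filter on low values. Inpp5d, Inpp5j, Itpka and Plcb2 had no row, which counts here as not detected. The 38 genes with a row comprised 3 IP3 receptors, 9 phospholipases C, 2 IP3 3-kinases and 8 kinases of higher inositol phosphates. They also comprised 6 genes of inositol synthesis and inositol phosphate breakdown and 10 phosphatases of phosphoinositide lipids.

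Phospholipase C splits the membrane lipid phosphatidylinositol bisphosphate into diacylglycerol, which activates protein kinase C, and inositol trisphosphate (IP3). IP3 opens its receptors, calcium channels of the endoplasmic reticulum, and so releases stored calcium. The signal ends when IP3 loses phosphates, on the way back to free inositol, or gains more of them and enters the higher inositol phosphates. In fibroblasts this pathway carries signals of growth factors and of G protein-coupled receptors.

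The cells were primary fibroblasts, which build connective tissue, cultured from gum of the upper jaw of wild-type C57BL/6 mice in medium with 10% serum. The irradiated group had 3 libraries of cells that received Er:YAG laser light, an infrared light absorbed by water, at 3.9 J/cm2 from 25 cm onto a 35-mm dish. The non-irradiated group had 3 libraries of cells without laser light, and both groups are labelled 3 h. How many animals or cultures stand behind the 6 libraries is not given in the sources used here. In the main test, p-values for irradiation rest on the spread of the differences between same-numbered libraries, and that spread may be technical.

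As recovered from the deposited values, the libraries held 45178137 to 59904715 reads assigned to genes. The members held from 8 to 9382 such reads per library. Fibroblast markers summed to 1619902 to 2112381 normalized counts in irradiated and 1538602 to 2245492 in non-irradiated libraries. A normalized count is a gene's read count divided by one scaling factor per library. Epithelial markers summed to 9.62 to 42.7 in irradiated and 25.4 to 36.4 in non-irradiated libraries, and Krt5, Krt14, Krt15 and Trp63 had no row. Libraries with the same replicate number deviated together, and the number was therefore kept as a block in the test.

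No inositol phosphate gene passed the test for irradiation. In limma with the replicate number as a block, 0 of 38 members passed an adjusted p of 0.05 over all genes tested, where 0.0186% of 16141 genes passed, and the smallest adjusted p of a member was 0.995. At an unadjusted p under 0.05 there were 2 members, Impa2 and Inpp4a, 5.26% of the members against 3.26% of all genes. That count was 6 without replicate 1, 0 without replicate 2 and 1 without replicate 3, and it was 1 in limma with no replicate block and 1 in the authors' deposited table. In edgeR and in DESeq2 with the block 0 members passed as well, against 0.0124% and 0.159% of all genes, and 0 passed in the authors' deposited table. The 95% interval of the fold change lay within 1.5-fold in either direction for 33 of 38 members, and within 2-fold for 35. The 5 members outside 1.5-fold were Ip6k3, Inpp4b and Plcd4, each with a mean under 100 normalized counts and a wide interval around 0, and Impa2 and Inpp4a, whose intervals leave out 0.

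More members had positive than negative fold changes. The median log2 fold change was 0.07 over the members and 0.0054 over all genes tested, and 29 of 38 members had a positive value, 76.3% against 51.5% of all genes. The direction differed between the pairs of same-numbered libraries: the median log2 ratio of the members was -0.07 in pair 1, 0.20 in pair 2 and 0.06 in pair 3. Without replicate 1 the median fold change of the members was 0.15, and without replicate 2 it was -0.0042. Gene length moved with the pair ratios over all genes, and its part in the members' values was not tested beyond the values given here. Of the members, 26 of 38 members were over 5364 bp in annotated exon length, in the longest of 3 equal groups of tested genes. In that group the median log2 ratio of all genes was -0.07, 0.17 and 0.04 in pairs 1, 2 and 3, against 0.07, -0.17 and -0.03 in the shortest group. Among the 9 members of the middle group, 7 had a positive fold change and the median was 0.09, against 49.9% and -0.00049 for all genes of that group. Among the 26 of the longest group, 21 were positive and the median was 0.07, against 64.7% and 0.05. In the shortest group 1 of 3 members was positive and the median was -0.01, against 40.0% and -0.04. With the length trend removed from each library, an alternative chosen after seeing the data, the members' median was 0.03 and 25 of 38 were positive, against 50.9% of all genes. Only 3 members were higher in all 3 pairs, Inpp4a, Ippk and Plcb3, or 7.89% against 11.8% of all genes. Impa2 and Ppip5k1 were lower in all 3 pairs, 5.26% against 11% of all genes. With quantile normalization these counts were 5 higher and 1 lower. For 0 members did the groups separate completely, where 2.08% of all genes had every irradiated library above and 2.65% every irradiated library below the non-irradiated ones.

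**Figure D1:**
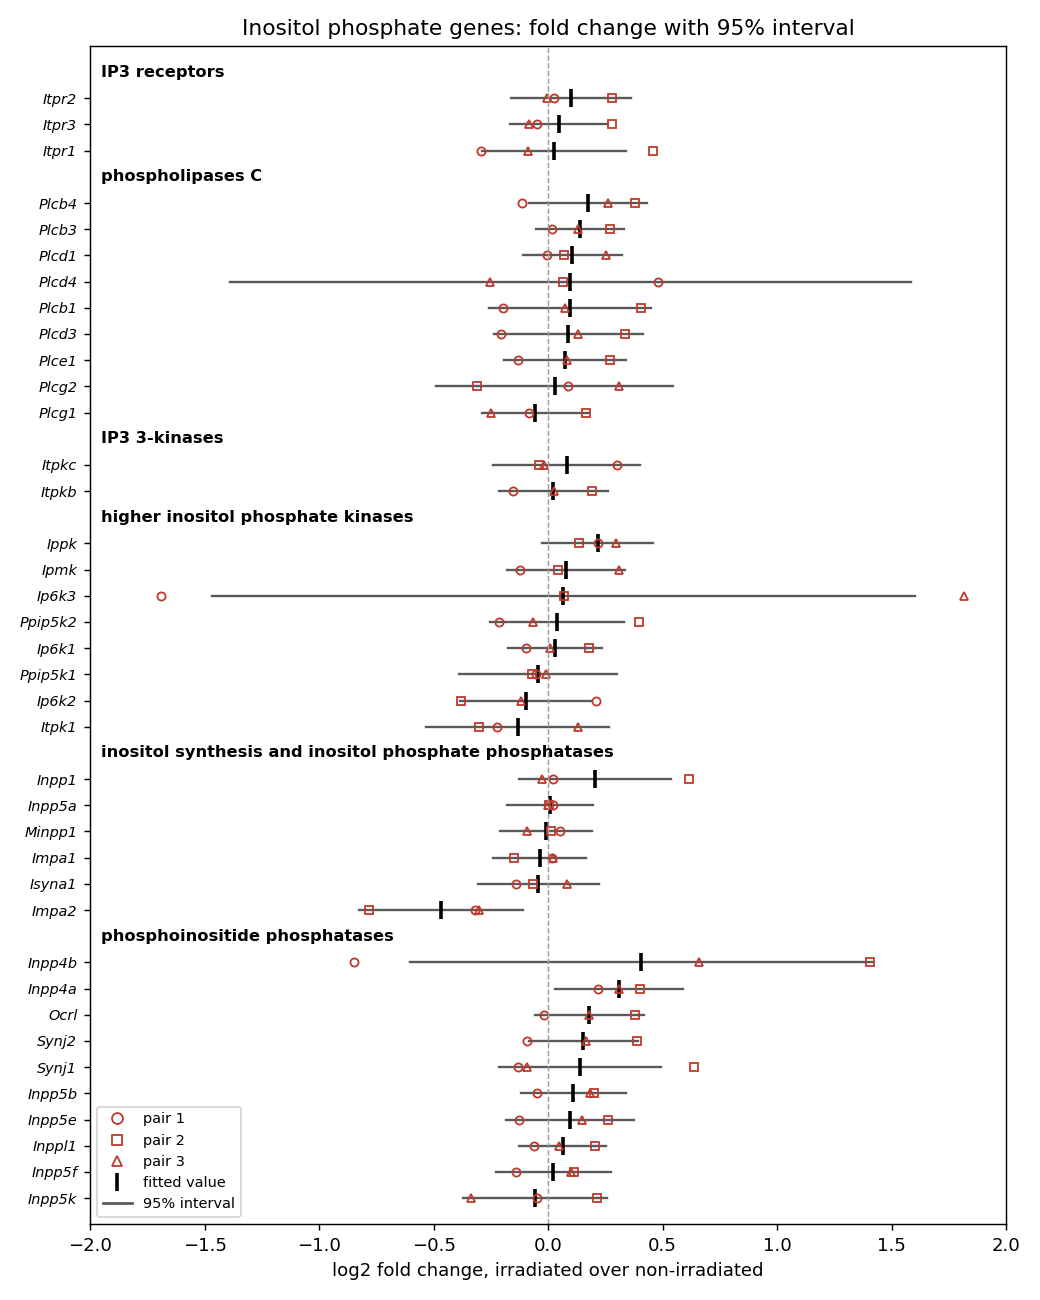
Log2 fold change (x axis, irradiated over non-irradiated) of the 38 members, grouped by role; the black tick is the fitted value, the grey line its 95% interval and the red symbols the ratios in the pairs of replicates 1, 2 and 3. Of the 38 intervals only those of Impa2 and Inpp4a leave out 0, and 33 lie within 1.5-fold.

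**Figure D2:**
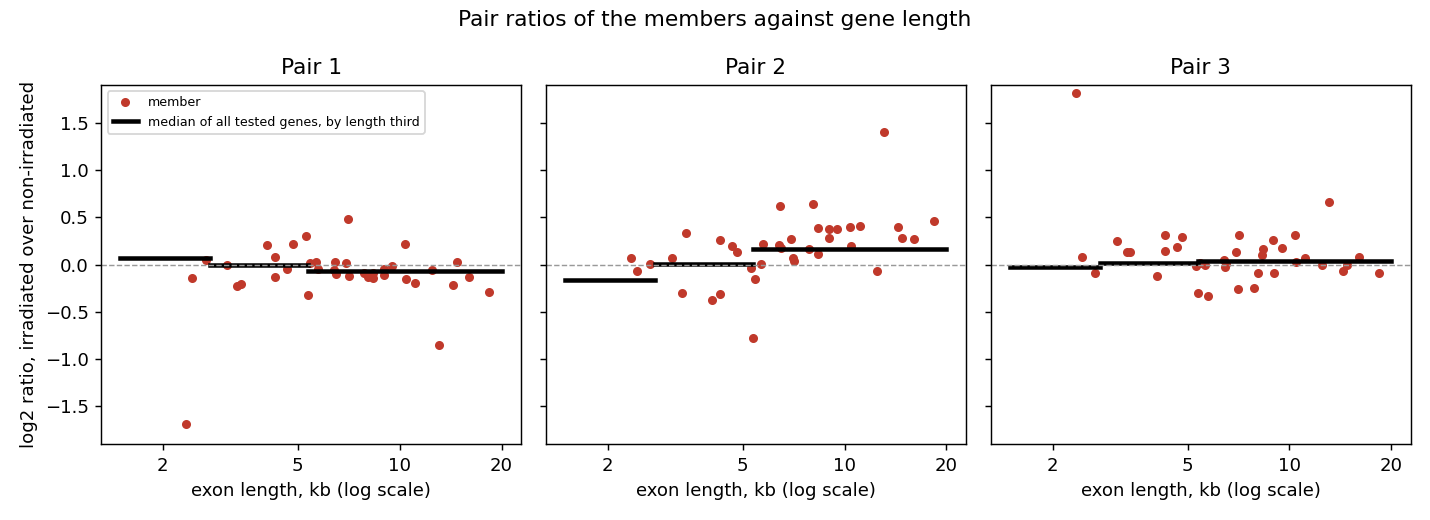
Log2 ratio of irradiated over non-irradiated (y axis) against annotated exon length in kb (x axis, log scale) in each pair; red points are members and black lines the median of all tested genes in each of 3 length groups (drawn to the edge of the plot). In pair 2 the longest group has a median of 0.17 and the shortest -0.17, while the order is the other way round in pair 1.

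Among the IP3 receptors, the type 3 gene stood highest and none passed the test for irradiation. Itpr3 had 7328, 7593 and 7906 normalized counts in irradiated libraries 1, 2 and 3, against 7576, 6250 and 8385 in non-irradiated ones. The groups overlapped, and the log2 fold change was 0.05 ± 0.09 (SE), with a 95% interval of -0.16 to 0.26 (adjusted p = 0.995 in limma). Itpr1, the type 1 receptor, best known from neurons, had 1653, 3107 and 3930 normalized counts in irradiated libraries, against 2026, 2264 and 4177 in non-irradiated ones. Its values were lowest in both libraries of replicate 1 and highest in both of replicate 3, and the log2 fold change was 0.02 ± 0.14 (adjusted p = 0.997 in limma). Itpr2, the type 2 receptor, was highest in both libraries of replicate 1, with 1339, 954 and 819 normalized counts in irradiated libraries, against 1316, 786 and 822 in non-irradiated ones. In the fit its log2 fold change was 0.10 ± 0.12, with a 95% interval of -0.16 to 0.36 (adjusted p = 0.995 in limma).

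Divided by exon length, Itpr3 made up 78.8% ± 2.72 of IP3 receptor transcripts in irradiated and 79.0% ± 2.16 in non-irradiated libraries (SD, n = 3 each). The share of Itpr1 was 14.5% ± 4.93 in irradiated and 14.5% ± 4.09 in non-irradiated libraries, and that of Itpr2 ranged from 4.58% to 9.11% over the 6 libraries. Within the irradiated group the Itpr1 share was 9.08% in library 1, 15.8% in library 2 and 18.7% in library 3, against 10.6%, 14.2% and 18.8% in the non-irradiated libraries. The Itpr1 share was lowest in both libraries of replicate 1 and highest in both of replicate 3. With the longest protein-coding transcript as length, a choice made after seeing the data, the Itpr3 share ranged from 65.3% to 74.3% over the 6 libraries. The Itpr1 share then averaged 23.4% in irradiated and 23.5% in non-irradiated libraries, with a range of 15.3% to 29.7%.

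**Figure D3:**
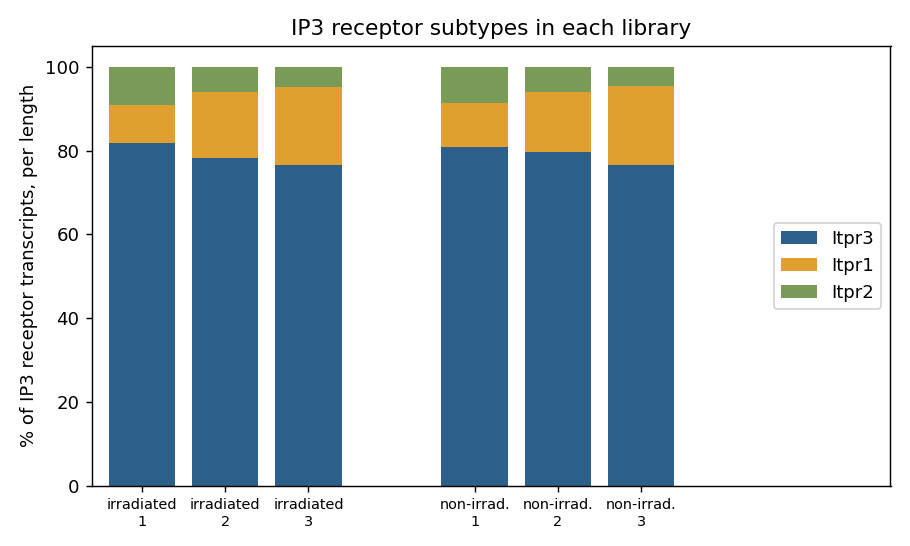
Share of each IP3 receptor gene in the summed receptor transcripts per exon length (y axis, %), as one stacked bar per library. Itpr3 takes 76.5% to 81.8% in every library, and the Itpr1 share runs from 9.08% in irradiated library 1 to 18.8% in non-irradiated library 3.

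Per exon length, phospholipases C, which make IP3, were led by Plcb3, a form activated by G proteins, and by Plcd1, a form activated by calcium. Plcb3 had 5430, 7097 and 8013 normalized counts in irradiated libraries 1, 2 and 3, against 5367, 5884 and 7308 in non-irradiated ones. It was higher in 3 of 3 pairs, but the groups overlapped, and the log2 fold change of 0.14 ± 0.08 (SE) did not pass (adjusted p = 0.995 in limma). Plcb4, another G protein-activated form, had 2418, 2632 and 2995 normalized counts in irradiated libraries and 2619, 2024 and 2499 in non-irradiated ones. Its log2 fold change was 0.17 ± 0.11 (adjusted p = 0.995 in limma), with pair 1 below 0 and the other pairs above it, and it was 0.07 without replicate 2 and 0.32 without replicate 1. Plcd1 had 2787, 2018 and 2986 normalized counts in irradiated libraries and 2797, 1926 and 2503 in non-irradiated ones. For Plcd1 it was 0.11 ± 0.09 (adjusted p = 0.995 in limma), and the libraries of replicate 2 were lowest in both groups.

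Plcg1, the form that receptor tyrosine kinases phosphorylate, averaged 2890 ± 323 normalized counts in irradiated and 3051 ± 698 in non-irradiated cells (SD, n = 3 each). Plce1, a form regulated by Ras family proteins, averaged 1274 ± 509 in irradiated and 1189 ± 428 in non-irradiated cells. Plcd3 averaged 646 ± 59.9 in irradiated and 609 ± 68.5 in non-irradiated cells, and Plcb1 averaged 525 ± 166 and 490 ± 154. In none of these genes did all pairs of same-numbered libraries share a direction. Plcg2, the form known from blood cells, averaged 140 ± 22.6 normalized counts in irradiated and 137 ± 26.8 in non-irradiated cells. Leukocyte markers, of which 8 of 10 had a row, summed to 284 to 500 in irradiated and 330.2 to 477 in non-irradiated libraries. Adgre1 and Cd3e had no row. Ptprc, the pan-leukocyte marker, had 14.2, 7.83 and 0 normalized counts in irradiated libraries 1, 2 and 3, against 15.2, 0 and 6.63 in non-irradiated ones. The highest of the list was Csf1r, with 250, 315 and 202 in irradiated and 219, 261 and 199 in non-irradiated libraries. Lyz2 came next, with 157, 101 and 43.3 in irradiated and 186, 92.3 and 67.4 in non-irradiated libraries. The part of such cells in the Plcg2 level was not tested, and in bulk RNA fewer cells of a type and less RNA per cell cannot be told apart. Plcd4 was the lowest, at 9.84, 11.7 and 20.2 normalized counts in irradiated and 6.77, 11.2 and 24.3 in non-irradiated libraries, and its 95% interval ran from -1.39 to 1.58.

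Kinases that add phosphates to IP3 and to the higher inositol phosphates showed no difference past the test. Itpkb, which converts IP3 to a tetrakisphosphate, averaged 1791 ± 156 normalized counts in irradiated and 1778 ± 307 in non-irradiated cells (SD, n = 3 each). Its relative Itpkc averaged 515 ± 78.5 in irradiated and 484 ± 37.6 in non-irradiated cells. Ippk, which makes the hexakisphosphate (phytate), had 983, 1199 and 1338 normalized counts in irradiated libraries 1, 2 and 3, against 846, 1091 and 1089 in non-irradiated ones. Each irradiated library was above its same-numbered partner, by log2 ratios of 0.22, 0.14 and 0.30, while the groups overlapped. Fitted over the pairs, its log2 fold change was 0.22 ± 0.11 (SE), with a 95% interval of -0.03 to 0.46 (adjusted p = 0.995 in limma). Ipmk, a multikinase that feeds Ippk, averaged 1629 ± 176 in irradiated and 1560 ± 329 in non-irradiated cells, and Itpk1 averaged 252 ± 52.1 and 279 ± 72.5.

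The kinases that make pyrophosphate-bearing inositols, Ip6k1 and Ip6k2, averaged 3843 ± 229 and 1406 ± 306 normalized counts in irradiated cells, against 3777 ± 469 and 1480 ± 16.8 in non-irradiated cells (SD, n = 3 each). Ppip5k2, which adds a further pyrophosphate, averaged 1814 ± 156 in irradiated and 1779 ± 302 in non-irradiated cells. Its paralog Ppip5k1 averaged 317 ± 39.6 and 327 ± 47.4, and was lower in 3 of 3 pairs by log2 ratios of -0.05, -0.07 and -0.0080. These ratios were small beside the 95% interval of the Ppip5k1 log2 fold change, -0.39 to 0.30. Ip6k3, known mainly from muscle, had 8.75, 47.0 and 37.5 normalized counts in irradiated and 30.5, 44.6 and 9.94 in non-irradiated libraries. Its pairs pointed in opposite directions, with log2 ratios of -1.69, 0.07 and 1.82, and the 95% interval ran from -1.47 to 1.60.

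Of the genes that make inositol or strip phosphates from inositol phosphates, Impa2 lay lowest relative to its controls. Impa2 encodes an inositol monophosphatase, the enzyme family that releases free inositol and is inhibited by lithium. It had 317, 324 and 411 normalized counts in irradiated libraries 1, 2 and 3, against 396, 557 and 507 in non-irradiated ones. Irradiated library 3 overlapped with non-irradiated library 1, and the other irradiated libraries lay below the whole non-irradiated group. The log2 fold change was -0.47 ± 0.16 (SE), with a 95% interval of -0.83 to -0.11 and log2 ratios of -0.32, -0.78 and -0.30 in the pairs. It had the smallest p of the members (unadjusted p = 0.0167 in limma) and did not pass over all genes (adjusted p = 0.995). The authors' deposited table gives it a log2 fold change of -0.47 with an unadjusted p = 0.0325 in DESeq2. Across the alternatives its log2 fold change ranged from -0.55 to -0.31.

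Impa1, the more abundant inositol monophosphatase, had 2737, 2861 and 2659 normalized counts in irradiated libraries, against 2703, 3170 and 2621 in non-irradiated ones. Its groups overlapped throughout. The share of Impa2 in the transcripts of both genes per exon length was 10.5%, 10.3% and 13.5% in irradiated libraries, against 12.9%, 15.1% and 16.4% in non-irradiated ones. Because such a share compares genes within a library, it does not depend on the scaling of libraries. The share rests on the same Impa2 counts and is not separate support. It was lower in 3 of 3 pairs and overlapped between the groups.

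Inpp1, which removes a phosphate from inositol bisphosphate, had 859, 1071 and 1196 normalized counts in irradiated and 845, 699 and 1218 in non-irradiated libraries. Its log2 fold change of 0.20 ± 0.15 (SE, adjusted p = 0.995 in limma) came from pair 2, where the log2 ratio was 0.62, against 0.02 in pair 1 and -0.03 in pair 3. Without replicate 2 the fold change of Inpp1 was -0.0021. Inpp5a, the phosphatase that ends the IP3 signal, had the smallest spread in its pairs, with log2 ratios of 0.02, 0.0033 and -0.0013. It averaged 3788 ± 424 normalized counts in irradiated and 3763 ± 387 in non-irradiated cells (SD, n = 3 each), and its 95% interval was -0.18 to 0.19. Minpp1, which removes phosphates from the higher inositol phosphates, averaged 2651 ± 147 in irradiated and 2667 ± 77.1 in non-irradiated cells. Isyna1, which makes inositol from glucose phosphate, averaged 829 ± 63.6 and 852 ± 34.5.

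Phosphatases of phosphoinositide lipids had positive fold changes in 9 of 10 genes with a row, and 0 of 10 passed. Over all genes tested 51.5% were positive, and 64.7% in the longest length group. The lean was not particular to these phosphatases: 8 of 9 phospholipases C and 3 of 3 IP3 receptors were positive. Among genes of inositol synthesis and inositol phosphate breakdown 2 of 6 were positive. The pairs differed in direction: all of the phosphoinositide phosphatases but Inpp4a were below 0 in pair 1, and all were above 0 in pair 2. Inpp4a, which removes a phosphate from phosphatidylinositol bisphosphate made downstream of PI3-kinase, had 772, 571 and 848 normalized counts in irradiated libraries 1, 2 and 3. Its non-irradiated libraries had 664, 432 and 685. Each irradiated library was above its partner, by log2 ratios of 0.22, 0.40 and 0.31, while the groups overlapped because both libraries of replicate 2 were low. The log2 fold change was 0.31 ± 0.12 (SE), with a 95% interval of 0.03 to 0.59 (unadjusted p = 0.0338 and adjusted p = 0.995 in limma). Its unadjusted p was 0.0751 in the authors' deposited table (DESeq2) and 0.2317 in limma with no replicate block. Its paralog Inpp4b had 37.2, 82.2 and 100.05 normalized counts in irradiated and 67.7, 30.4 and 63.0 in non-irradiated libraries, with no common direction in the pairs.

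Ocrl, the phosphatase mutated in Lowe syndrome in humans, had 2058, 2382 and 2600.3 normalized counts in irradiated and 2085, 1829 and 2296 in non-irradiated libraries. Its fitted log2 fold change was 0.18 ± 0.11 (SE, adjusted p = 0.995 in limma). Synj2, a synaptojanin of membrane traffic, had 4027, 4351 and 5267 normalized counts in irradiated and 4290.0, 3324 and 4694 in non-irradiated libraries. That of Synj2, on the same scale, was 0.15 ± 0.10 (adjusted p = 0.995 in limma). Inpp5b, a close relative of Ocrl, had 1821, 1795 and 1681 normalized counts in irradiated and 1884, 1562 and 1482 in non-irradiated libraries, a log2 fold change of 0.11 ± 0.10 (adjusted p = 0.995 in limma). Without replicate 2 the log2 fold change was 0.08 for Ocrl, 0.04 for Synj2 and 0.07 for Inpp5b, and without replicate 1 it was 0.28, 0.28 and 0.19. In these 3 genes pair 1 was below 0 and pairs 2 and 3 above it, and the groups overlapped. Inppl1, which encodes SHIP2, a phosphatase of the PI3-kinase product, averaged 8453 ± 773 in irradiated and 8065 ± 250.1 in non-irradiated cells (SD, n = 3 each). Synj1 averaged 1462 ± 147 and 1342 ± 259, and Inpp5e, a phosphatase of the primary cilium, 929.8 ± 10.3 and 876 ± 122. Inpp5f averaged 1175 ± 196 in irradiated and 1167 ± 266 in non-irradiated cells, and Inpp5k averaged 753 ± 99.7 and 799.7 ± 217.

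Several members differed between the replicate numbers, whatever the treatment. In a moderated F test of the replicate number in limma, 8 of 38 members passed an adjusted p of 0.05, which is 21.1% of the members against 13.4% of all genes tested. They were Plce1 (adjusted p = 0.00315), Itpr1 (adjusted p = 0.0071), Itpr2 (adjusted p = 0.0212), Plcb3, Plcd1, Inpp4a, Inpp5f and Plcb1. The count varied with the settings: in limma 0 members passed without a variance trend, 2 without a filter on low values and 5 without replicate 3, while edgeR called 7 and DESeq2 8. With the length trend removed, an alternative chosen after seeing the data, 8 of 38 members passed against 19.2% of all genes. Of the 8 members named here 7 were among them, and Inpp4a was not (adjusted p = 0.0575 in limma). Plce1 had 737, 1336 and 1750 normalized counts in irradiated libraries 1, 2 and 3, and 808, 1107 and 1651 in non-irradiated ones. In Plce1 and Itpr1 the mean of replicate 3 was 2.201-fold and 2.204-fold that of replicate 1. The replicate means of Plcb1 and Plcb3 had the same order as these, by 1.72-fold and 1.42-fold, and those of Itpr2 the opposite order, by 1.62-fold. Among the non-irradiated libraries alone, Plcb1 and Itpr2 were lowest in replicate 2, at 380 and 786 normalized counts. Plcd1, Inpp4a and Inpp5f were lowest in both libraries of replicate 2.

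Some markers of fibroblasts and of other cell types also differed between the replicate numbers, where 13.4% of all genes did. Of the 5 smooth muscle and pericyte markers 2 passed, Cnn1 and Myh11, and the list summed to 16732 to 47087 normalized counts in irradiated and 17210 to 41228 in non-irradiated libraries. Cnn1, a contractile protein gene, had 9026, 15055 and 33520 in irradiated libraries 1, 2 and 3, and 8984, 14271 and 30892 in non-irradiated ones. Des, Mcam and Rgs5 did not pass, and Des was highest in both libraries of replicate 1. Of 4 tested endothelial markers 2 passed, Tek and Kdr, both highest in replicate 1. Cdh5 and Pecam1 did not pass, and Cdh5 was lowest in both libraries of replicate 1. The endothelial list summed to 201.1 to 604.8 in irradiated and 131 to 617 in non-irradiated libraries. Among fibroblast markers 6 of 10 passed, of which Col1a2, Col3a1, Dcn, Pdgfrb and Thy1 were highest and Lum lowest in replicate 1. Col3a1, a fibrillar collagen gene, had 298103, 114441 and 98309 in irradiated and 326117, 109529 and 89796 in non-irradiated libraries. Their part in the differences of the inositol phosphate genes was not tested.

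**Figure D4:**
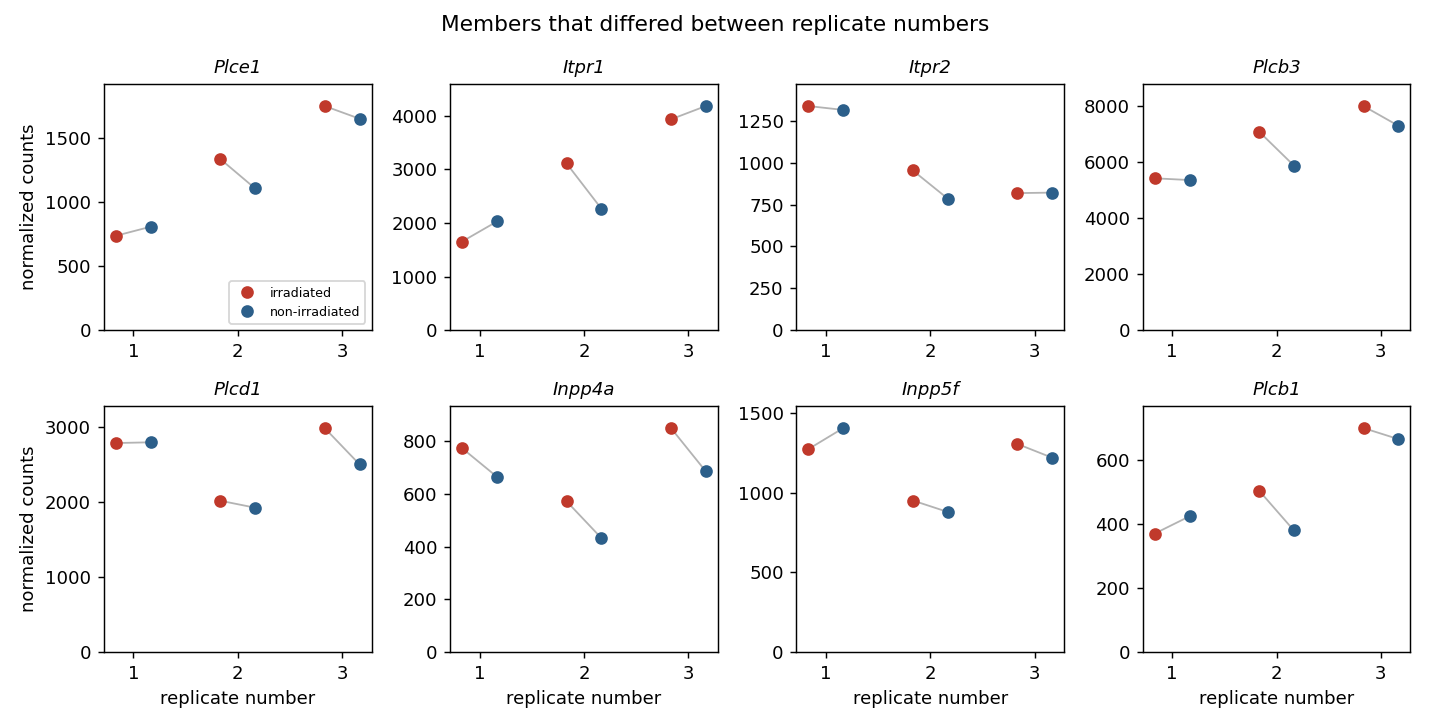
Normalized counts (y axis, from 0) of the 8 members that differed between replicate numbers, with irradiated (red) and non-irradiated (blue) libraries of one number joined by a line. Both libraries of replicate 3 are highest for Plce1, Itpr1, Plcb3 and Plcb1, and both of replicate 1 are highest for Itpr2.

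Of the 42 genes, 38 matched a promoter in the RefSeq table, and Impa1, Impa2, Inpp5j and Itpr1 did not. The promoters of 4 of the genes that differed between replicate numbers are shown. They were chosen because the gene's mean over both libraries of a number rose from replicate 1 to 3 (Plce1, Plcb1 and Plcb3) or fell (Itpr2). Each is the 250 bases before the start of the gene in RefSeq, build GRCm38.p6, read 5′ to 3′ on the gene's strand. Capitals mark matches, searched on both strands, to 4 short motifs. The GC box, bound by Sp factors, was searched as GGGCGG. The TATA box of core promoters was searched as TATAAA. The AP-1 element, bound by Fos and Jun proteins, was searched as TGANTCA. The TEAD element, bound by the partners of YAP, was searched as GGAATG, and no matches overlapped.
Plce1, chr19:38523947-38524196, plus strand: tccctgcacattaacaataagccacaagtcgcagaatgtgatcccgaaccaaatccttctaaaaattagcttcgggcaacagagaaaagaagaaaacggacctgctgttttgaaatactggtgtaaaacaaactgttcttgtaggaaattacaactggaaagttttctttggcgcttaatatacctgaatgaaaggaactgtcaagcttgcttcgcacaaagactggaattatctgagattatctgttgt
Plcb1, chr2:134785914-134786163, plus strand: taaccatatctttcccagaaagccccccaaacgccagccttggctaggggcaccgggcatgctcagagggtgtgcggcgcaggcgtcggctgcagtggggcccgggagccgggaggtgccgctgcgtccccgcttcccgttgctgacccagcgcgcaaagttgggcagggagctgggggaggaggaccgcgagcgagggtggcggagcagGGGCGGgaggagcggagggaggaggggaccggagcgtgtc
Plcb3, chr19:6969815-6970064, minus strand: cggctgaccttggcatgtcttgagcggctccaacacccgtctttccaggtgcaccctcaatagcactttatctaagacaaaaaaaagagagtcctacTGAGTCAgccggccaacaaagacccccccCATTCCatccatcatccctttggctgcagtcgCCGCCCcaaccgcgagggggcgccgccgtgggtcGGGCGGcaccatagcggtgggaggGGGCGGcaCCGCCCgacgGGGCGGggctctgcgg
Itpr2, chr6:146502224-146502473, minus strand: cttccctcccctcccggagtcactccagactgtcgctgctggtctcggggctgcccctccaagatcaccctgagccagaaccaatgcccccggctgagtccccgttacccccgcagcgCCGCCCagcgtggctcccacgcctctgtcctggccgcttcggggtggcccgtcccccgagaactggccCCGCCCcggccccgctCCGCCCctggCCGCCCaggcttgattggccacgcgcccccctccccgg

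Plce1 was 38.8% G and C with no match to any of the 4 motifs, while Plcb1 was 71.2% with 1 GC box and Plcb3 64.4% with 5. Plcb3 also held 1 match to AP-1 and 1 to TEAD, and Itpr2 held 4 GC boxes at 74.4% G and C. Of all 32851 RefSeq promoter windows of that length, 32.7% held a GC box, 12.4% a TATA box, 6.75% an AP-1 match and 12.6% a TEAD match.

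Set in order of level per exon length, the members spanned 1291 to 1.99 normalized counts per kb. Inppl1 was highest, and its 6 libraries (1188 to 1424 per kb) did not overlap with those of Minpp1, the next. Minpp1 (994 per kb), Plcb3 (936 per kb), Itpr3 (832 per kb) and Plcd1 (809 per kb) followed, each overlapping with its neighbour. Of the 37 neighbouring pairs in the order 34 overlapped, the other breaks lying between Impa1 (513 per kb) and Plcg1 (378 per kb), and between Ppip5k1 (25.8 per kb) and Ip6k3 (12.7 per kb). The lower end held Inpp4b (4.85 per kb) and Plcd4 (1.99 per kb). The order depends on the length used: with the longest protein-coding transcript in place of all annotated exons, 29 of 38 members stood at another position.

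**Figure D5:**
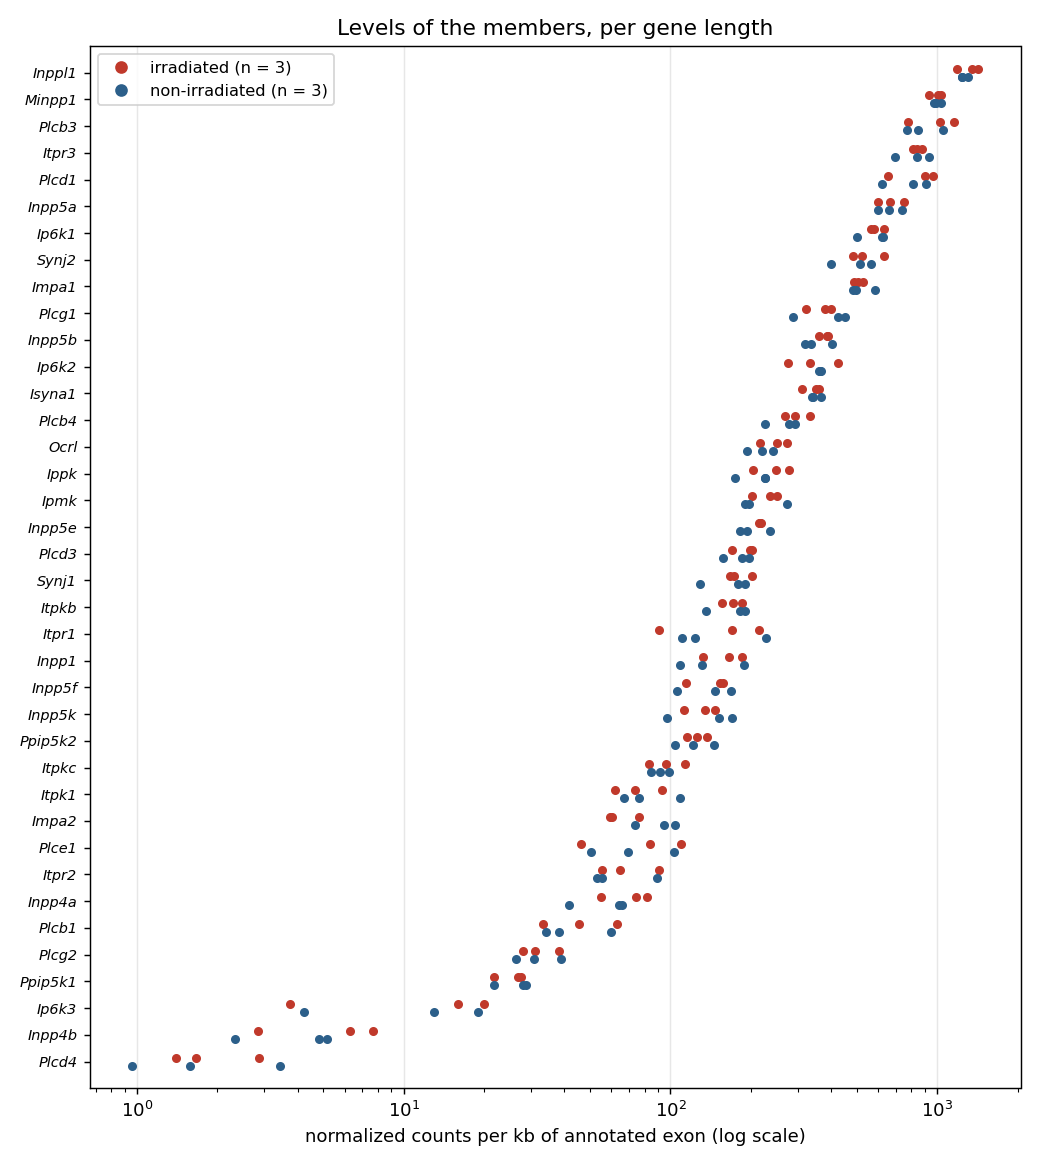
Normalized counts per kb of annotated exon (x axis, log scale) of the 38 members in the 3 irradiated (red) and 3 non-irradiated (blue) libraries, ordered by mean. The levels run from 1291 per kb for Inppl1 to 1.99 for Plcd4, and red and blue points overlap for each member.

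Genes around the pathway gave the same count of calls as the members. Of 5 lists with 87 tested genes, 0 passed in limma with the block, higher or lower, against 0.0186% of all genes. For phosphoinositide kinases and inositol transporters (21 tested) the median log2 fold change was 0.05. Those of smallest p were Pi4ka, a kinase that starts the synthesis of the substrate of phospholipase C, at 4751 ± 310.4 normalized counts in irradiated and 4145 ± 191 in non-irradiated cells (SD, n = 3 each), and Pi4k2b at 2714 ± 212 and 2367 ± 187. Other inositol enzymes, with 14 tested, had a median of 0.04. Plcl1, a phospholipase C-like protein without catalytic activity, had 331, 262 and 506 in irradiated and 349, 148 and 306 in non-irradiated libraries, and Plch2 had 12.0, 13.7 and 30.8 in irradiated and 2.54, 0 and 11.04 in non-irradiated ones. The values of Plch2 rest on few reads.

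Genes of Gq coupling and of the diacylglycerol arm, with 16 tested, had a median log2 fold change of 0.04. Dgkh, a diacylglycerol kinase, averaged 1810 ± 270.4 normalized counts in irradiated and 1437 ± 244 in non-irradiated cells (SD, n = 3 each), and Dgke averaged 1075 ± 203 and 896 ± 81.5. Partners and degradation factors of the IP3 receptor, with 18 tested, had a median of 0.07. Itprip, which encodes an IP3 receptor-interacting protein, had 3851, 4635 and 4100.1 normalized counts in irradiated libraries 1, 2 and 3, against 3221, 3651 and 3308 in non-irradiated ones. It was higher in 3 of 3 pairs, by log2 ratios of 0.26, 0.34 and 0.31. Every irradiated library was above every non-irradiated one, as in 2.08% of all genes. Among the genes named from these lists for their small p, Plch2 and Pi4ka separated in the same way. Pi4ka had 4589, 5109 and 4555 normalized counts in irradiated and 4226, 3927 and 4282 in non-irradiated libraries. Such separation was not counted over the full lists. The log2 fold change of Itprip was 0.30 ± 0.08 (SE) and did not pass (adjusted p = 0.995 in limma). Rnf170, a ubiquitin ligase that acts on activated receptors, averaged 885 ± 168 in irradiated and 745 ± 124 in non-irradiated cells. Calcineurin and NFAT genes, which read out calcium, had a median of 0.02 over 18. Nfatc1 averaged 3299 ± 719 in irradiated and 2872 ± 831 in non-irradiated cells, and Camk2a had 40.5, 33.3 and 20.2 normalized counts in irradiated and 38.9, 3.04 and 8.84 in non-irradiated libraries.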

How the data were processed

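Groups and replicate numbers were taken from the sample titles. The submitters' processing notes name StringTie 2.1.7, HISAT2 2.2.1, FastQC 0.11.9, Trimmomatic 0.39 and build GRCm39. Settings, strand and annotation release were not given in sources used here. Each deposited signal value is a normalized count per gene and library. As the deposited numbers show, the values are whole numbers divided by one factor per library, and these whole numbers are taken here as reads. Per the file headers, the authors also deposited a DESeq2 log2 fold change, its standard error and test statistic (scores), and raw and adjusted p-values.

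Of 20745 rows, 80 repeated an identifier and were dropped. Dividing by each library's smallest step turned 100% of values into whole numbers, to within 0.001. These numbers, taken as reads, entered edgeR 4.0.16 and DESeq2 1.42.0 with the block, which called 2 and 24 genes. Genes reaching 10 normalized counts in 3 or more libraries (16141) were tested on log2(normalized count + 1) in limma 3.58.1 (R 4.3.3, eBayes with a trend), 2-sided, Benjamini-Hochberg adjusted, threshold 0.05. Fold changes of low genes are understated on that scale.

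The replicate number is a block because a DESeq2 refit with it differed from the authors' deposited log2 fold changes by at most 0.000861, and one without it by up to 8.61. In 13053 genes averaging 50 or more, deviations of same-numbered libraries correlated at 0.642, 0.471 and 0.562, against at most 0.025 otherwise. Deviations were taken from each group's mean, so positive same-number values lower the others, which are not an independent baseline. The block leaves 2 residual degrees of freedom. Exon lengths came from GENCODE M21 (GRCm38); reads of overlapping genes or near-identical copies could be split by the authors' counting. The fit was checked on simulated data with known changes.

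Members, lists and tests were chosen with earlier results of these data known. All members may be named; full statistics go to the 10 of smallest p and the IP3 receptors, and each pathway list gives its 2 genes of smallest p. Genes outside that rule, such as markers, were chosen after their values were seen.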

Additional observations from a re-analysis of the deposited data

How the results depend on the processing

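Under the 18 alternatives, 0 members and 0 genes of the pathway lists passed. The members' median log2 fold change ranged from -0.0042 to 0.15 without one replicate number. The count over all genes was 3 with the block and 0 in limma with no replicate block (132 at an unadjusted p under 0.05), 0 without a filter (738) and 0 without a trend (705). It was 24 in DESeq2 with the block and in the authors' deposited table, and, as alternatives chosen after seeing the data, 0 in edgeR (112) and 5 in DESeq2 with no replicate block. Without one replicate number it was 32 to 64. The replicate block changed no other call. Of the members, 8 differed between replicate numbers, against 2 without a filter, 0 without a trend, and 5 to 8 without one replicate number. With quantile normalization 5 members were higher and 1 lower in 3 of 3 pairs, against 3 and 2. By median over libraries 10 members changed position in the order of levels, and by longest transcript 29. Sign changed for Itpr1 with quantile normalization (-0.0009) and with the length trend removed (-0.0545). Without one replicate number, log2 fold changes ran from -0.1909 to 0.1842 for Itpr1, -0.0021 to 0.3190 for Inpp1 and -0.0665 to 0.1163 for Itpr3, the lowest without replicate 2; the cause was not tested. With the same sign throughout, they ran from 0.0099 to 0.1518 for Itpr2, 0.0748 to 0.2015 for Plcb3 and 0.0313 to 0.1613 for Plcd1. With the block, leaving out a single library equals leaving out its pair. Members under 100 normalized counts (Ip6k3, Inpp4b and Plcd4) rest on few reads.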
